A study of Arabidopsis thaliana with 18 samples.

Results

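The genes described here encode subunits of the 26S proteasome of Arabidopsis thaliana. They were taken as a list of 46 locus codes, all 46 of which were found among the 30014 genes measured. The list holds 23 genes of the 20S core particle, of which 12 are listed as alpha and 11 as beta subunits. The other 23 belong to the 19S regulatory particle, 10 of them listed as RPT and 13 as RPN subunits. The codes were picked by subunit class, but the list was proposed with earlier results of these data in view and the values that led to it are not recorded, so its counts are given as a description. Of the 46 genes, 38 carry a symbol in the RefSeq gene table and 8 are called by their code alone.

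The 26S proteasome breaks down proteins that have been tagged with ubiquitin. Its core is a barrel in which outer rings of alpha subunits gate the entry and inner rings of beta subunits carry the proteases. The regulatory particle caps the barrel: its RPT subunits are ATPases that unfold the substrate and thread it into the core, and its RPN subunits include scaffolds and receptors for ubiquitin. In Arabidopsis many subunits are encoded by more than 1 gene, and a mutant of the receptor RPN10 is hypersensitive to abscisic acid, the hormone that keeps seeds dormant.

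Transcripts were measured on Affymetrix AGRONOMICS1 tiling arrays in 2 genotypes: NIL-DOG1, which the labels call the wild type, and the mutant rdo5-1, which carries a lesion in the seed dormancy gene RDO5. The line in which rdo5-1 was made is not given in the sources used here. Each genotype was sampled as siliques 14 days after pollination, with the fruit wall and the seeds together, as dry seeds, and as seeds imbibed for 6 h. All plants grew on soil under a day of 16 h light and a night of 8 h. Each of the 6 groups had 3 arrays, which the labels call biological replicates, and the labels give no batch.

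The values are log2 intensities, 1 per gene and array, and ranged from 1.89 to 14.67. Array medians lay between 4.03 and 4.35, and replicate arrays correlated at 0.990 to 0.995 over all genes. RDO5 was lower in rdo5-1 in each stage, by 1.00 on the log2 scale in siliques and by 0.93 before and 1.34 after imbibition (limma, adjusted p = 0.00333, 0.00852 and 1.62e-04). Of 6 markers of the maturing embryo, 6 lay above the array median in all groups. The linear levels of each marker list were summed per array and the sum put on the log2 scale. For 4 green valve markers it was 12.95 to 13.32 in silique arrays and 7.71 to 8.05 in seed arrays. For 5 valve margin markers it was 8.81 to 9.10 against 5.54 to 5.78. Fruit wall and stage therefore cannot be told apart in the comparison of dry seeds with siliques, and in bulk RNA fewer cells of a type cannot be told apart from less RNA per cell. Of 4 markers of germinating seeds, none passed the test from dry to imbibed NIL-DOG1 seeds and 1, the expansin EXPA8, rose in rdo5-1.

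Group means of the 46 proteasome genes ran from 4.74 to 11.77, and 43 of them belonged to the brightest 20% of genes by mean over all arrays. The other 3 were PAF2, RPN1B and AT2G32730, whose values stayed between 4.66 and 6.07 on every array. That is nearer to the array median, so their changes may be compressed, which was not tested. Because a value also depends on the probes of its gene, levels are not ranked between genes and only changes of each gene are compared. The map of changes by array shows each gene relative to its own mean in NIL-DOG1 siliques.

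**Figure D1:**
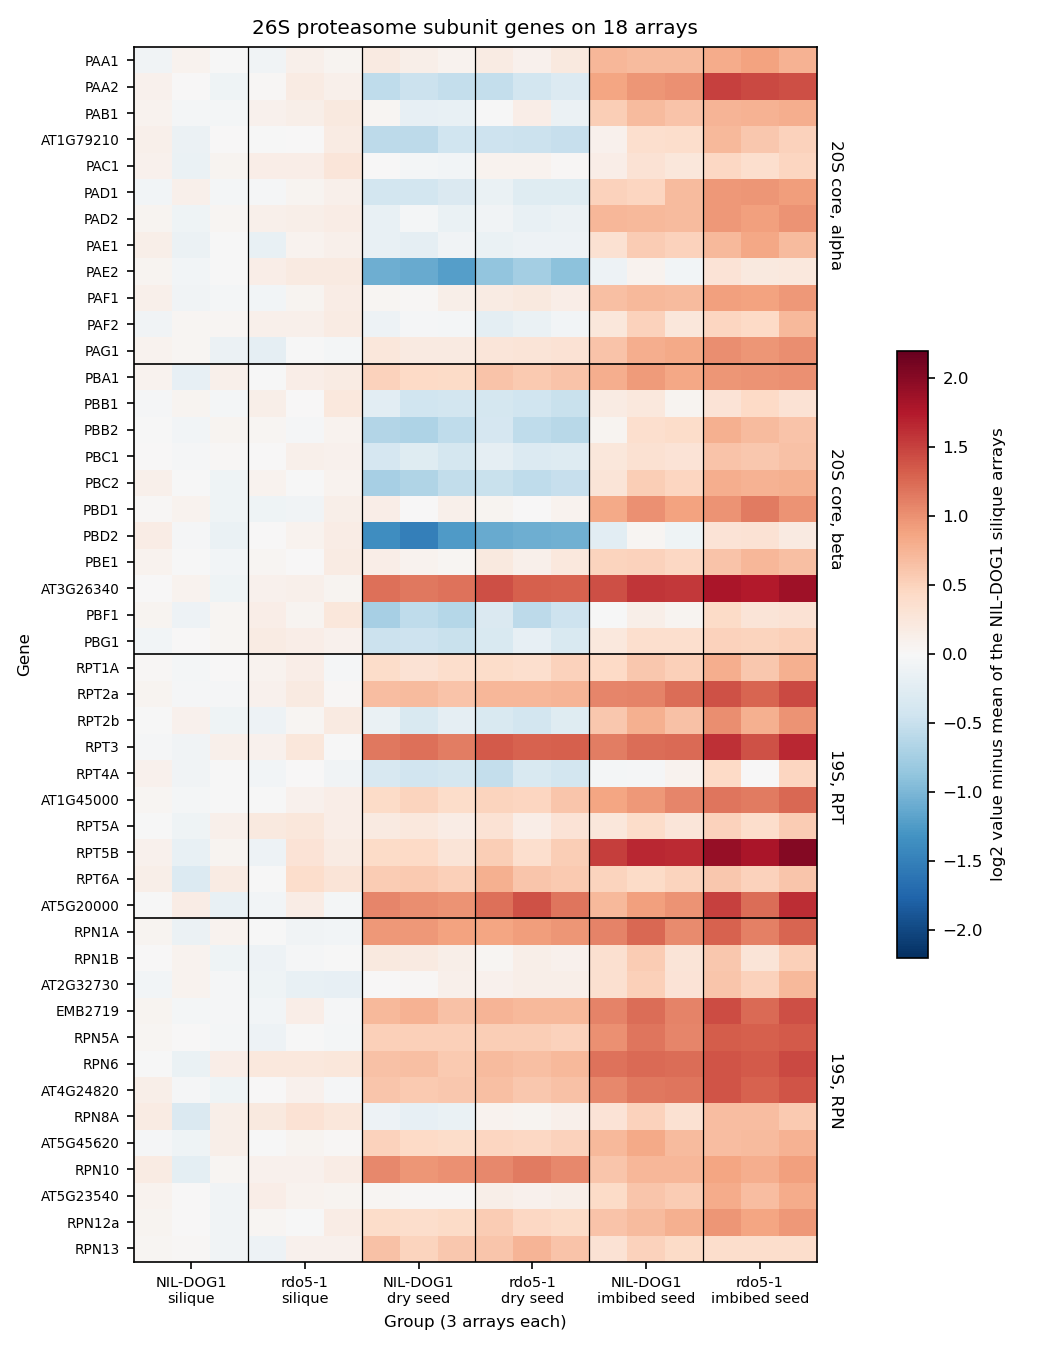
Each row is 1 of the 46 proteasome genes and each column 1 of the 18 arrays, and the colour gives the log2 value minus the gene's mean over the NIL-DOG1 silique arrays. On the deposited scale most core rows turn lower or stay near 0 in the dry seed columns, while most regulatory rows turn higher. With arrays centred on their medians the NIL-DOG1 core median turns to 0.11, against 0.30 for all genes. Nearly all rows are higher in the imbibed seed columns.

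From siliques to dry seeds the transcripts of the core and of the regulatory particle went different ways on the deposited scale. In NIL-DOG1, 17 of 23 regulatory genes rose and 1 fell, whereas 3 of 23 core genes rose and 11 fell. Over all 30014 genes 54% were called in this comparison, 27.4% higher and 26.6% lower, at an adjusted p under 0.05 in limma. Since bright genes were called more often, the brightest 20% of genes are the closer background, and there 55.0% were higher and 31.2% lower. The median change was -0.14 for the core and 0.45 for the regulatory particle on the log2 scale, against 0.05 for all genes. In rdo5-1, 17 regulatory genes rose and 2 fell, and 3 core genes rose and 13 fell. Beside them, 52.9% of all genes were called, 27.2% higher and 25.7% lower, and of the brightest 20% 53.8% were higher and 31.8% lower. The medians in rdo5-1 were -0.27 for the core and 0.45 for the regulatory particle.

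These directions depend in part on how the arrays are scaled. Centring each array on its median moved the change of the median gene by 0.25 in NIL-DOG1 and 0.23 in rdo5-1, so that 52.6% of all genes were called higher and 20.1% lower in NIL-DOG1, and 50.5% and 20.4% in rdo5-1. Under that scaling the core median in NIL-DOG1 turned to 0.11 and 8 core genes were called higher, while the regulatory median was 0.70. The gap between the medians, -0.59 in NIL-DOG1 and -0.72 in rdo5-1, is the same under any shift of a whole array.

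Of the 12 alpha genes 4 fell in NIL-DOG1 and 1 rose, or 33.3% and 8.33%, so that the share of falls was near the 31.2% of the brightest 20% of genes. Of the 11 beta genes 7 fell and 2 rose, or 63.6% and 18.2%. In rdo5-1 6 alpha genes fell, or 50%, above the 31.8% of the brightest 20% of genes there, and 7 beta genes fell again. The largest fall was that of PBD2, which encodes a copy of the fourth beta subunit. Its log2 values were 10.12, 9.94 and 9.82 in NIL-DOG1 siliques and 8.60, 8.45 and 8.72 in dry seeds. All 3 dry seed arrays lay far below the siliques, and the change was -1.37 ± 0.09 (SE, limma, adjusted p = 1.30e-09), to 0.386 times the silique level. In rdo5-1 the values were 9.96, 10.04 and 10.13 in siliques and 8.86, 8.89 and 8.91 in dry seeds, again without overlap.

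PAE2, a gene for the fifth alpha subunit, read 9.58, 9.45 and 9.51 in NIL-DOG1 siliques and 8.43, 8.40 and 8.31 in dry seeds. The groups were well separated, with a change of -1.13 ± 0.07 (SE, limma, adjusted p = 3.45e-10). PBC2, for the third beta subunit, went from 8.92, 8.80 and 8.71 to 8.09, 8.16 and 8.27 in NIL-DOG1. Every dry seed array was again below every silique array, and the change was -0.64 ± 0.08 (SE, limma, adjusted p = 1.78e-06). PBF1, for the sixth beta subunit, went from 10.50, 10.32 and 10.48 to 9.70, 9.87 and 9.81, a change of -0.64 ± 0.08 (SE, limma, adjusted p = 4.24e-06) with no overlap.

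The 3 core genes that rose were the same in both genotypes: AT3G26340, listed among the beta subunits, PBA1, which carries the caspase-like protease activity, and PAG1, for the seventh alpha subunit. AT3G26340 had values of 8.50, 8.56 and 8.38 in NIL-DOG1 siliques and 9.69, 9.64 and 9.68 in dry seeds. It stood more than 1 log2 unit higher on each dry seed array, with a change of 1.19 ± 0.07 (SE, limma, adjusted p = 1.28e-10), or 2.28-fold. PBA1 rose by 0.46 ± 0.08 and PAG1 by 0.22 ± 0.07 (SE, limma, adjusted p = 9.02e-05 and 0.0190). The PBB pair for the trypsin-like activity fell, PBB1 by 0.36 and PBB2 by 0.63 on the log2 scale (adjusted p under 0.05 for both), and PBE1 changed by 0.09, which was not called. PBE1 is the gene that the table names for the chymotrypsin-like subunit, but the table gives AT3G26340 no name, so its place among the beta subunits is not stated here. The change of PBE1 alone is therefore not read as that of all genes for the chymotrypsin-like subunit.

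Among the ATPases of the regulatory particle, 8 of 10 genes rose and 1 fell in NIL-DOG1, or 80% and 10%, beside 55.0% and 31.2% of the brightest 20%. RPT3 had values of 9.30, 9.25 and 9.43 in NIL-DOG1 siliques and 10.48, 10.53 and 10.46 in dry seeds. The dry seed arrays were all higher, by 1.16 ± 0.08 (SE, limma, adjusted p = 1.98e-09). AT5G20000, listed among the RPT genes, read 8.37, 8.53 and 8.20 in siliques and 9.44, 9.39 and 9.35 in dry seeds, a change of 1.03 ± 0.11 (SE, limma, adjusted p = 5.69e-07). The single fall was that of RPT4A, which went from 7.26, 7.09 and 7.16 to 6.82, 6.75 and 6.78, without overlap. Its change was -0.39 ± 0.10 (SE, limma, adjusted p = 0.00356), and RPT2b joined it in rdo5-1 with -0.38 (adjusted p = 0.00226). In NIL-DOG1 RPT2b missed the threshold at -0.22 (limma, adjusted p = 0.0539), and leaving out singly any of 6 arrays brought the number of falling regulatory genes there to 2. With each array centred on its median, 0 regulatory genes were called lower in either genotype.

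Of the 13 RPN genes, 9 rose in NIL-DOG1 and 10 in rdo5-1, or 69.2% and 76.9%, and none fell in either. Of the brightest 20% of genes 55.0% and 53.8% were called higher. The ubiquitin receptor RPN10 had values of 9.48, 9.10 and 9.35 in NIL-DOG1 siliques and 10.37, 10.27 and 10.31 in dry seeds. The groups did not overlap, and the change was 1.01 ± 0.08 (SE, limma, adjusted p = 1.42e-08), or 2.01-fold. RPN13, also a ubiquitin receptor, changed by 0.58 and the scaffold RPN1A by 0.93 (limma, adjusted p = 5.94e-06 and 1.77e-08). The RPN genes that were not called in NIL-DOG1 were RPN1B, AT2G32730, RPN8A and AT5G23540, with changes between -0.15 and 0.18. Over both genotypes, 19 of the 46 genes rose in each and 12 fell in each, none was called in opposite directions, 5 were called in 1 genotype and 10 in neither. Such joint counts were not made for all genes, so no background stands beside them. Within NIL-DOG1, 43.5% of the 46 were called higher and 26.1% lower, beside 55.0% and 31.2% of the brightest 20%. Within rdo5-1 it was 43.5% and 32.6%, beside 53.8% and 31.8%.

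**Figure D2:**
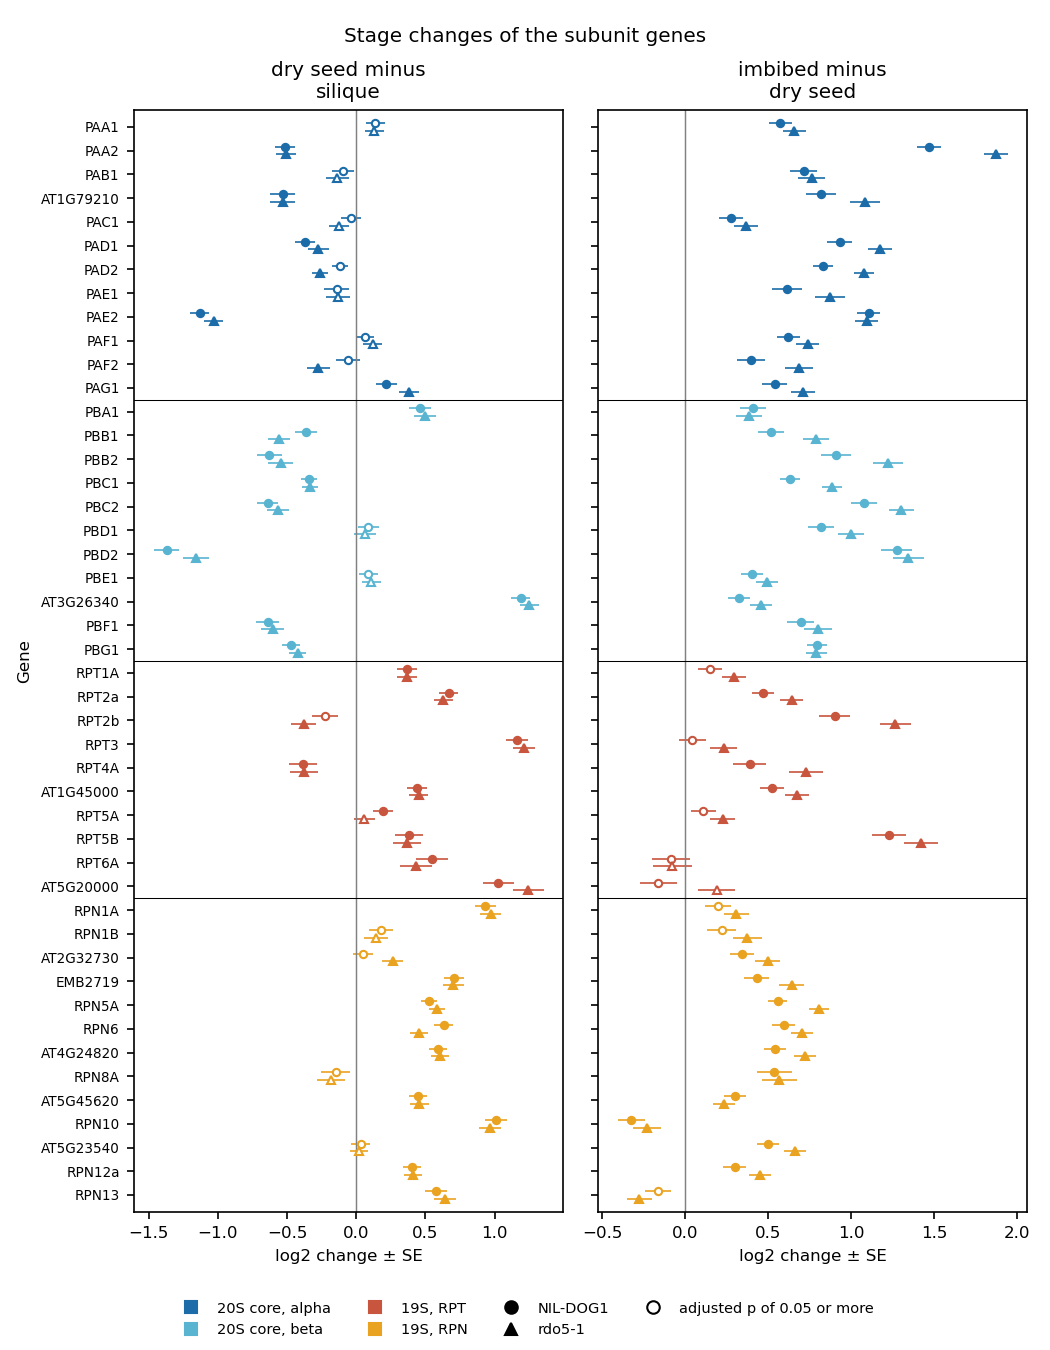
Fitted log2 change of each of the 46 genes with its standard error, for dry seeds minus siliques (left) and imbibed minus dry seeds (right), with circles for NIL-DOG1, triangles for rdo5-1, a colour per subunit class and open symbols for genes that were not called. In the left panel the NIL-DOG1 core genes spread from -1.37 to 1.19, most below 0 as deposited, and the regulatory genes lie mostly above 0. With centred arrays the core median there is 0.11, against 0.30 for all genes. In the right panel all 23 core genes lie above 0.

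During 6 h of imbibition the core genes rose together. All 23 core genes rose in NIL-DOG1 and all 23 in rdo5-1, and none fell, beside 24.9% of all genes called in NIL-DOG1 (14.2% higher, 10.6% lower) and 28.3% in rdo5-1 (16.4% higher, 11.9% lower). In the brightest 20% of genes 34.7% rose in NIL-DOG1 and 37.7% in rdo5-1. Median changes of the core were 0.70 in NIL-DOG1, with a range of 0.28 to 1.47, and 0.80 in rdo5-1, with a range of 0.37 to 1.87, against -0.02 and -0.04 for all genes. In the regulatory particle 14 genes rose and 1 fell in NIL-DOG1, with a median of 0.34, and 19 rose and 2 fell in rdo5-1, with a median of 0.50. The comparison uses the same dry seed arrays as the one with siliques, so a high or low value there enters both with opposite sign. The values of the members are therefore set side by side and no relation between the comparisons is computed.

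PAA2, a gene for the first alpha subunit, had the largest rise. It read 8.21, 8.30 and 8.25 in NIL-DOG1 dry seeds and 9.64, 9.74 and 9.78 in imbibed seeds. The imbibed arrays were more than 1 log2 unit higher throughout, and the change was 1.47 ± 0.07 (SE, limma, adjusted p = 9.92e-10), or 2.77-fold. In rdo5-1 it went from 8.25, 8.36 and 8.46 to 10.27, 10.22 and 10.18, a change of 1.87 ± 0.07 (SE, limma, adjusted p = 4.91e-11), or 3.65-fold.

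PBD2, the gene with the largest fall from siliques to dry seeds, rose to 9.72, 10.01 and 9.86 in imbibed NIL-DOG1 seeds. That change of 1.27 ± 0.09 (SE, limma, adjusted p = 4.13e-08) placed the imbibed arrays within the range of the silique arrays or just below it. PAE2 reached 9.41, 9.59 and 9.46 in imbibed NIL-DOG1 seeds, which overlaps its silique values, after a change of 1.11 ± 0.07 (SE, limma, adjusted p = 8.58e-09). RPT5B, an ATPase gene, read 7.93, 7.94 and 7.78 in dry seeds and 9.02, 9.16 and 9.14 in imbibed seeds of NIL-DOG1. Its imbibed arrays lay above all dry seed and silique arrays, with a change of 1.23 ± 0.10 (SE, limma, adjusted p = 2.16e-07).

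RPN10 went the other way. From 10.37, 10.27 and 10.31 in NIL-DOG1 dry seeds it moved to 9.92, 10.03 and 10.03 in imbibed seeds, lower on every array, with a change of -0.32 ± 0.08 (SE, limma, adjusted p = 0.00744). In rdo5-1 its values were 10.37, 10.45 and 10.37 in dry seeds and 10.17, 10.11 and 10.21 in imbibed seeds, a change of -0.23 ± 0.08 (SE, limma, adjusted p = 0.0481). It was the single gene of the 46 that fell in both genotypes, while 37 rose in both, 6 were called in 1 genotype, 2 in neither and none in opposite directions. These joint counts were not made for all genes. Within NIL-DOG1, 80.4% of the 46 were called higher, beside 14.2% of all genes and 34.7% of the brightest 20%. Within rdo5-1 it was 91.3%, beside 16.4% and 37.7%. RPN13, also a ubiquitin receptor, fell by 0.28 in rdo5-1 (limma, adjusted p = 0.0126) and changed by -0.16 in NIL-DOG1, which was not called. These falls in rdo5-1 lay close to the threshold: leaving out singly any of 16 of the 18 arrays brought their number from 2 to 1 or, for the second rdo5-1 dry seed array, to 0. The 2 genes called in neither genotype were RPT6A, at -0.08 in both, and AT5G20000, at -0.16 and 0.19.

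Set relative to the NIL-DOG1 silique arrays, the means over the genes of each particle show the course of both. The core mean was 0.00 ± 0.04 in NIL-DOG1 siliques, -0.23 ± 0.01 in dry seeds and then 0.50 ± 0.07 in imbibed seeds (SD, n = 3 arrays). The regulatory mean was 0.00 ± 0.05, 0.44 ± 0.02 and 0.77 ± 0.06 in the same groups. On this scale the core was lowest in dry seeds, but with each array centred on its median its dry seed mean was 0.03 ± 0.01 in NIL-DOG1 and 0.11 ± 0.03 in rdo5-1 against silique means of 0.00 ± 0.05 and 0.10 ± 0.05 (SD, n = 3 arrays). The regulatory particle stood lowest in siliques and highest in imbibed seeds on both scales, with centred means of 0.69 ± 0.03 in dry and 1.05 ± 0.07 in imbibed NIL-DOG1 seeds.

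In rdo5-1 the core mean went from 0.08 ± 0.06 in siliques to -0.13 ± 0.02 in dry seeds and then to 0.76 ± 0.01 in imbibed seeds (SD, n = 3 arrays), and the regulatory mean was 0.07 ± 0.05, 0.50 ± 0.01 and 0.98 ± 0.08. The difference of core minus regulatory mean was 0.00 ± 0.03 in NIL-DOG1 siliques, -0.67 ± 0.02 in dry seeds and then -0.27 ± 0.01 in imbibed seeds. The 3 stages did not overlap, since single arrays ran from -0.03 to 0.03, from -0.68 to -0.64 and from -0.28 to -0.26. In rdo5-1 it was 0.02 ± 0.06, -0.63 ± 0.02 and -0.22 ± 0.08, with dry seed arrays at -0.65 to -0.61 and imbibed arrays at -0.28 to -0.13. This difference is unaffected by a shift of a whole array, and in each stage the arrays of the genotypes overlapped in it.

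**Figure D3:**
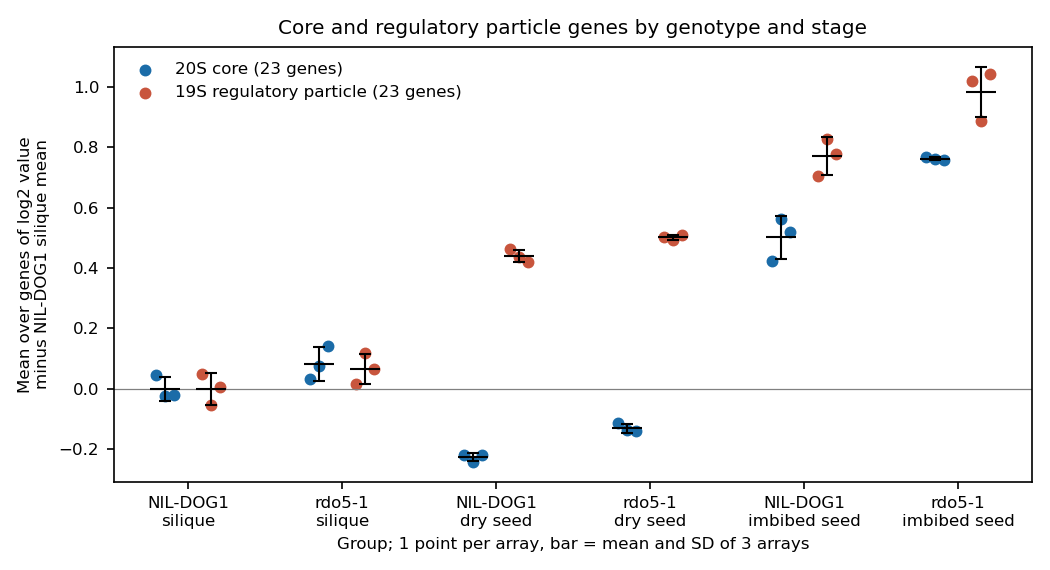
Points are arrays, 3 for each of the 6 groups, bars are the mean and SD, and the axis gives the mean log2 value of the 23 core and of the 23 regulatory genes relative to their mean in NIL-DOG1 siliques. In dry seeds, as deposited, the core stands at -0.23 and -0.13 (0.03 and 0.11 with arrays centred on their medians) and the regulatory particle at 0.44 and 0.50, and in imbibed seeds both stand above 0.

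Among the 46 genes, 10 pairs encode the same subunit under 1 symbol, and their copies often changed by different amounts. The 8 genes called by their code alone were left out of this pairing, so further copies may be among them. Copies may share probes, since the sources used here do not name the probes behind each value, and this would make them look more alike. PBD1 read 9.95, 10.00 and 9.83 in NIL-DOG1 siliques, 10.07, 9.94 and 10.03 in dry seeds and 10.76, 10.93 and 10.81 in imbibed seeds. It changed by 0.09 ± 0.08 from siliques to dry seeds, not called, where its copy PBD2 changed by -1.37 ± 0.09 (SE), and both rose in imbibed seeds. With arrays centred on their medians, PBD1 was called higher in dry seeds than in siliques, by 0.34 (limma, adjusted p = 8.98e-04). The per-array gap of PBD1 over PBD2 moved by 1.46 between the stages, the largest of the 10 pairs.

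RPT5A had values of 8.69, 8.73 and 8.67 in NIL-DOG1 dry seeds and 8.74, 8.90 and 8.78 in imbibed seeds, all close together. Its change of 0.11 ± 0.07 (SE) was not called (limma, adjusted p = 0.344), where that of its copy RPT5B was 1.23 ± 0.10, a gap of 1.12. PAE1 read 10.01, 9.74 and 9.87 in siliques and 9.72, 9.68 and 9.80 in dry seeds of NIL-DOG1, which overlap. Its change of -0.14 ± 0.09 (SE) stands beside -1.13 ± 0.07 for PAE2, and turned to 0.11 when arrays were centred on their medians, called in neither setting. After quantile normalization the change of PAE1 was -0.24 and was called lower (limma, adjusted p = 0.00952).

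PAA1 went from 10.62, 10.55 and 10.49 in NIL-DOG1 dry seeds to 11.14, 11.11 and 11.11 in imbibed seeds. Its rise of 0.57 ± 0.07 (SE, limma, adjusted p = 1.01e-05) stands beside 1.47 ± 0.07 for PAA2, a gap of 0.90. In the ATPase pair RPT2a and RPT2b, the former rose by 0.67 from siliques to dry seeds and the latter changed by -0.22, not called. Differences between copies were not tested.

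**Figure D4:**
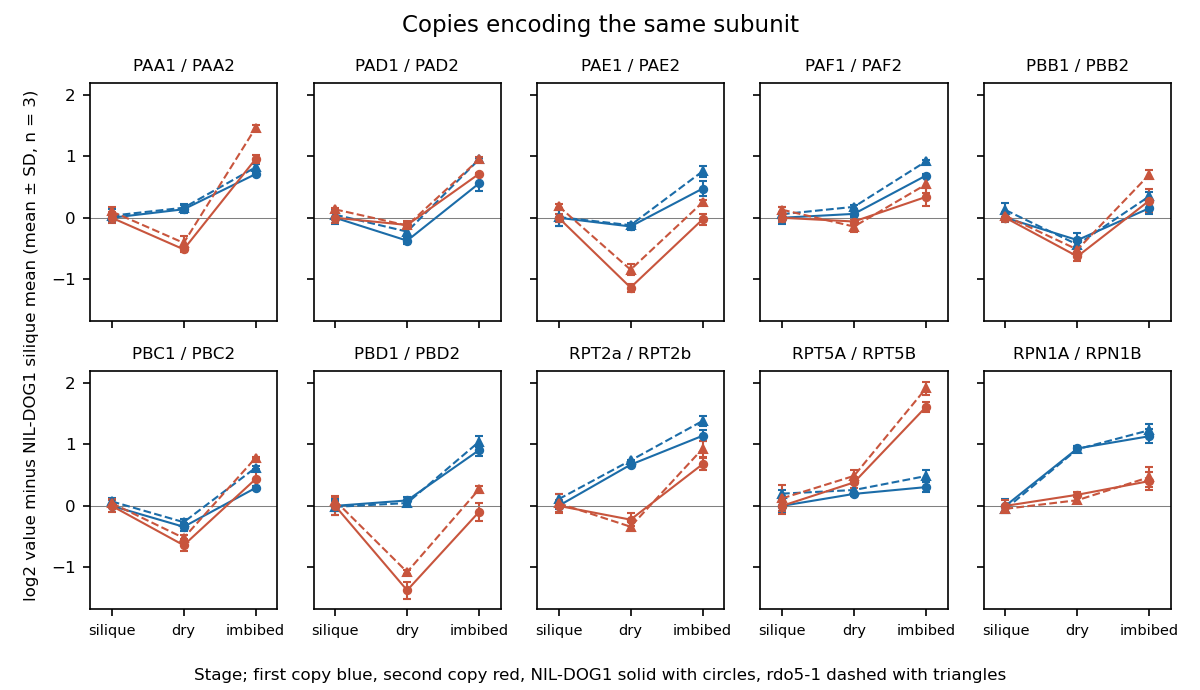
Each of 10 panels shows the copies of 1 subunit, 1 in blue and the other in red, as the log2 value minus the gene's NIL-DOG1 silique mean by stage (mean and SD of 3 arrays), with solid lines for NIL-DOG1 and dashed lines for rdo5-1. In NIL-DOG1 the lines part most between siliques and dry seeds for PBD1 and PBD2 (changes of 0.09 and -1.37) and between dry and imbibed seeds for RPT5A and RPT5B (0.11 and 1.23).

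Between genotypes, proteasome genes were called in imbibed seeds and in no other stage. There 5 genes were higher in rdo5-1 and none lower, beside 0.633% of all genes called, 0.506% higher and 0.127% lower, and 1.22% called higher among the brightest 20%. The 5 were PAA2, PAD1, PBC1 and PBB2 of the core and AT5G20000 of the regulatory particle. Of the 46 genes, 44 had a change above 0, where 49.0% of all genes and 61.9% of the brightest 20% did. The median was 0.23 for the 46 genes, 0.25 for the core and 0.23 for the regulatory particle. In 36 genes all rdo5-1 arrays lay above all NIL-DOG1 arrays and in none below, while this was so for 8.13% of all genes above and 7.33% below, and for 15.2% of the brightest 20% above.

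PAA2 had values of 9.64, 9.74 and 9.78 in NIL-DOG1 imbibed seeds and 10.27, 10.22 and 10.18 in rdo5-1. The genotypes were separated by more than the spread of either, with a change of 0.51 ± 0.07 (SE, limma, adjusted p = 0.00287), or 1.42-fold. PBC1, for the third beta subunit, read 10.22, 10.29 and 10.26 in NIL-DOG1 and 10.59, 10.56 and 10.61 in rdo5-1, a change of 0.33 ± 0.06 (SE, limma, adjusted p = 0.0149). PAD1, for the fourth alpha subunit, read 9.42, 9.39 and 9.62 in NIL-DOG1 and 9.86, 9.89 and 9.84 in rdo5-1, a change of 0.39 ± 0.07 (SE, limma, adjusted p = 0.0227). In both, every mutant array was higher than every NIL-DOG1 array.

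AT5G20000 read 9.08, 9.26 and 9.35 in NIL-DOG1 imbibed seeds and 9.87, 9.60 and 9.99 in rdo5-1, a change of 0.59 ± 0.11 (SE, limma, adjusted p = 0.0230). PBB2 read 8.74, 9.04 and 9.06 in NIL-DOG1 and 9.45, 9.36 and 9.30 in rdo5-1, a change of 0.42 ± 0.09 (SE, limma, adjusted p = 0.0442). Neither overlapped, but in both the first NIL-DOG1 imbibed array was the lowest of its group. Over all 46 genes the number called fell from 5 to 1 without that array, to 1 without the first or the third rdo5-1 imbibed array, and to 2 and 3 without the second and the third NIL-DOG1 imbibed array. It was 9 without dim genes, 11 with the trend and robust settings, 15 with array weights, 3 after quantile normalization and 0 when the 6 arrays were fitted alone. PAA2 passed the test in all alternatives except the fit on the arrays of the 2 groups alone, where its adjusted p was 0.0648, with a range over the alternatives from 8.73e-04 to 0.0648, though its change was under 1 on the log2 scale. The other 4 each lost it in several, with adjusted p-values of up to 0.177 for PAD1, 0.159 for PBC1, 0.165 for AT5G20000 and 0.238 for PBB2.

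In siliques and dry seeds no proteasome gene was called between genotypes, beside 0.2% of all genes called in siliques (0.107% higher, 0.0933% lower) and 0.137% in dry seeds (0.09% higher, 0.0466% lower) by limma. At an unadjusted p under 0.05 there were 7 genes in siliques and 6 in dry seeds, against 36 in imbibed seeds. In the same order, 2667, 2504 and 2495 of all 30014 genes were under it, and 796, 533 and 791 of the 6003 brightest. Changes above 0 numbered 39 of 46 in siliques, with a median of 0.07, and 38 of 46 in dry seeds, with a median of 0.08, where 50.6% and 50.5% of all genes and 62.0% and 55.4% of the brightest 20% lay above 0. After quantile normalization the medians in siliques were 0.02 for the core and 0.0045 for the regulatory particle, so that the silique shift nearly vanished. Arrays of the genotypes did not overlap in 9 genes higher and 1 lower in siliques, beside 6.19% and 6.26% of all genes, and in 15 higher and 0 lower in dry seeds, beside 7.63% and 7.05%. Among the brightest 20% the share higher without overlap was 10.4% in siliques and 14.5% in dry seeds.

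The smallest adjusted p in siliques was that of RPN6, a lid subunit. It read 9.70, 9.56 and 9.85 in NIL-DOG1 siliques and 9.94, 9.94 and 9.96 in rdo5-1, higher on each array by a small margin, with a change of 0.24 ± 0.07 (SE, limma, adjusted p = 0.248). PAE2 followed with 9.58, 9.45 and 9.51 against 9.67, 9.72 and 9.72 (change 0.19, adjusted p = 0.421). RPT5A read 8.49, 8.41 and 8.61 against 8.72, 8.74 and 8.64 (change 0.20, adjusted p = 0.437). In all 3 the mutant arrays lay above those of NIL-DOG1, and none passed the test.

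In dry seeds PAE2 again came first, with 8.43, 8.40 and 8.31 in NIL-DOG1 and 8.64, 8.77 and 8.61 in rdo5-1, a change of 0.29 ± 0.07 (SE, limma, adjusted p = 0.148). PBD2 read 8.60, 8.45 and 8.72 against 8.86, 8.89 and 8.91 (change 0.30, adjusted p = 0.337). PBG1, for the seventh beta subunit, read 10.36, 10.37 and 10.33 against 10.49, 10.64 and 10.49 (change 0.19, adjusted p = 0.378). The groups were separated in each of these genes, and none was called.

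**Figure D5:**
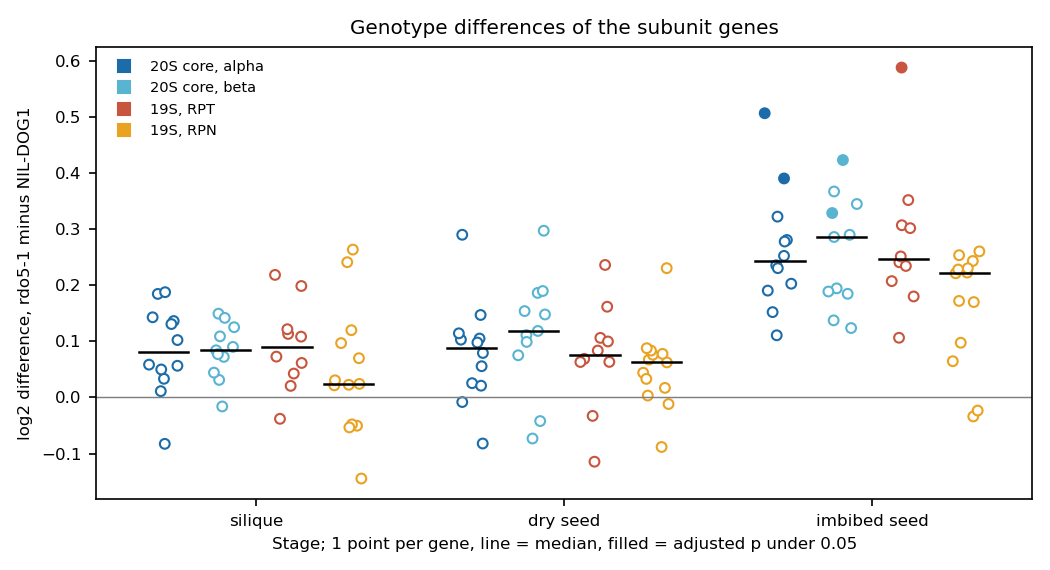
Log2 change of rdo5-1 minus NIL-DOG1 for each of the 46 genes in siliques, dry seeds and imbibed seeds, with a colour per subunit class, a line at each class's median and filled points for called genes. Points lie mostly a little above 0 in the first stages, with medians of 0.07 and 0.08, and higher in imbibed seeds, with a median of 0.23 and 5 called genes.

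Whether the genotype difference itself changed between stages was tested as an interaction, and no proteasome gene was called. From siliques to dry seeds 0.05% of all genes were called (0.0267% higher, 0.0233% lower). No proteasome gene had an unadjusted p under 0.05 there, beside 2202 of all 30014 genes, and the lowest adjusted p of the 46 was 0.695 (limma). From dry to imbibed seeds 0.02% of all genes were called (0.0167% higher, 0.00333% lower), 11 of the 46 genes had an unadjusted p under 0.05, and 41 of 46 lay above 0 with a median of 0.15. The lowest adjusted p there was that of PAA2, at 0.40 ± 0.10 (SE, limma, adjusted p = 0.354). The larger genotype difference in imbibed seeds than in dry seeds was thus not shown for any single gene. Beside it, the log2 of the summed linear levels of the 4 germinating seed markers was 7.03 to 7.17 in rdo5-1 imbibed seeds and 6.66 to 6.78 in NIL-DOG1. Of the 4, EXPA8 was called higher in rdo5-1, by 0.80 (limma, adjusted p = 0.00703). The sum was higher still in siliques, at 8.63 to 8.88 in NIL-DOG1 and 8.89 to 9.09 in rdo5-1. The part of these marker differences in the proteasome values was not tested.

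Other genes of the pathway were read from lists of 31 annotated genes. Of 4 listed subunit genes that are not among the 46, DSS1(I) rose by 0.40 from siliques to dry seeds in NIL-DOG1, and RPN5B and DSS1(V) changed by -0.34 and -0.37, both called lower. Further subunit copies were among the pathway codes not used. On imbibition 3 of the 4 were called higher in NIL-DOG1 and 2 in rdo5-1, and 0 lower, beside 14.2% and 16.4% of all genes called higher. The transcription factor NAC078 activates proteasome genes in Arabidopsis together with NAC053. It rose by 1.43 ± 0.08 from siliques to dry seeds in NIL-DOG1 (SE, limma, adjusted p = 2.66e-10), and NAC053 changed by 0.10, not called. From dry to imbibed seeds NAC053 rose by 0.57 in NIL-DOG1 and 0.84 in rdo5-1 (adjusted p = 6.16e-04 and 1.36e-05), whereas NAC078 fell by 0.27 and 0.26. PA200, a cap that can take the place of the regulatory particle, rose by 0.55 from siliques to dry seeds and was not called in imbibed seeds.

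Of 14 genes for ubiquitin activation, delivery of tagged proteins and the CDC48 unfoldase, 12 rose and 1 fell from siliques to dry seeds in NIL-DOG1, with a median of 0.82, and 11 rose and 1 fell in rdo5-1, with a median of 0.69. Of all genes 27.4% rose and 26.6% fell in NIL-DOG1 and 27.2% and 25.7% in rdo5-1, and of the brightest 20% 55.0% rose and 31.2% fell in NIL-DOG1. CDC48B rose by 1.90 and UBP6, a deubiquitinating enzyme of the regulatory particle, by 1.40, and the shuttle receptor RAD23C fell by 1.31 on the log2 scale (each adjusted p under 0.05). Of these 14, 3 rose and 1 fell in imbibed NIL-DOG1 seeds, and 5 rose and 1 fell in rdo5-1, which is near the shares of higher calls in the brightest 20% of genes, 34.7% and 37.7%, or below them. The COP9 signalosome is a complex built like the lid of the regulatory particle. Of its 10 genes 8 rose and 1 fell from siliques to dry seeds in NIL-DOG1, with a median of 0.99, and 8 rose and 0 fell in rdo5-1, with a median of 0.91, beside the same shares of all genes as above. In imbibed seeds none of the 10 rose and 4 fell in each genotype. Beside them, 10.6% and 11.9% of all genes and 23.7% and 24.4% of the brightest 20% were called lower. Among the 4 was CSN2, which rose by 1.71 and then fell by 0.35 on the log2 scale in NIL-DOG1. No gene of these lists was called between genotypes in any stage.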

How the data were processed

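RNA of 18 arrays was measured on 1 platform, and the authors deposited 1 table of log2 values per gene code, made by RMA per the submitters' processing notes; the table names no genome build, so no coordinates are given. RMA normalizes the arrays to one another, so a change in total RNA per sample would not be seen. Depth has no meaning for arrays, and 3 arrays a group limit the precision. From the deposited log2 values, limma 3.58.1 (R 4.3.3; lmFit with 1 mean per group, eBayes, 12 residual degrees of freedom) was fitted to all 30014 genes. Within each comparison p-values were adjusted over all genes by Benjamini-Hochberg, and the threshold for a call was 0.05. Symbols came from the TAIR 10.1 RefSeq gene table, which matched 29464 codes; of 44 pathway codes 13 were not used. The members, lists and the rule for named genes (largest called changes, smallest p, most different copies) were chosen with earlier results of these data known, and the background of the brightest 20% of genes after seeing the values. Promoter motifs and protein identity of copies were not analysed here. The fit was tested on simulated data. Same-numbered arrays correlated at -0.05 to 0.17 in their deviations, so the numbers were not taken as pairs. Alternatives were a filter on dim genes, quantile normalization, median centring, eBayes with trend, array weights, the compared arrays alone, a replicate block, a fold threshold and leaving out each array.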

Additional observations from a re-analysis of the deposited data

How the results depend on the processing

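With each array centred on its median, dry seeds minus siliques had a core median of 0.11 in NIL-DOG1 (reported -0.14, a reversal) and -0.047 in rdo5-1, regulatory medians of 0.70 and 0.68, 8 and 7 core genes higher and 0 regulatory genes lower in both, and PAE1 at 0.11. Under it 1 regulatory gene was lower in imbibed against dry rdo5-1 seeds. Quantile normalization gave a core median of -0.24 in NIL-DOG1, a core minus regulatory gap of -0.74 (NIL-DOG1) and -0.801 (rdo5-1) for dry seeds minus siliques, core medians of 0.59 and 0.70 and regulatory medians of 0.27 and 0.36 for imbibed minus dry seeds, genotype medians in siliques of 0.02 (core) and 0.0045 (regulatory), and 3 genes higher in rdo5-1 imbibed seeds (reported 5).

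That last count was 9 without dim genes, 11 with trend and robust settings, 15 with array weights, 0 on the compared arrays alone and 4 with the replicate block, where PBB2 had an adjusted p of 0.0845. Regulatory genes lower in NIL-DOG1 dry seeds than siliques were 2 without dim genes and with trend, and those lower in imbibed rdo5-1 seeds were 1 on the compared arrays alone and 1 with the replicate block. The replicate block changed no other count of calls by over 1.5 times. With a change of at least 1 on the log2 scale also required, dry seeds minus siliques kept 1 core gene higher, 2 lower and 3 regulatory genes higher in NIL-DOG1, and 1, 2 and 2 in rdo5-1. Imbibed minus dry seeds kept 4 core genes and 1 regulatory gene higher in NIL-DOG1 and 8 and 2 in rdo5-1, no regulatory gene was lower (0), and 0 genes differed between genotypes.

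Leaving out each array in turn, dry seeds minus siliques in NIL-DOG1 ranged from -0.21 to -0.10 (core median), 0.41 to 0.50 (regulatory median), -0.65 to -0.56 (gap) and 1 to 2 (regulatory genes lower). For imbibed minus dry seeds the core median ranged from 0.65 to 0.73 in NIL-DOG1 and from 0.79 to 0.86 in rdo5-1, where the regulatory median was 0.44 to 0.55, the gap 0.27 to 0.38 and the regulatory genes lower 0 to 2. The genes higher in rdo5-1 imbibed seeds were 1 to 5. For the interactions, the gap ranged from -0.0106 to 0.071 (dry minus silique) and from -0.0467 to 0.0392 (imbibed minus dry), where the medians were 0.11 to 0.20 (core) and 0.12 to 0.21 (regulatory). The cause of these shifts was not tested, apart from centring, which adds 1 constant per array. Changes of the 3 dim genes may be limited by their signal over background, which was not tested, and 3 arrays a group limit all calls.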
